A study of Mus musculus with 17 samples.

Results

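Cytosolic ribosomes translate nearly all mRNA of a cell, and each ribosome carries 1 copy of most of its proteins, named RPS for the small subunit, which reads the mRNA, and RPL for the large subunit, which joins the amino acids. Their mRNAs are short and abundant in most tissues, and in neurons they are also found in dendrites and axons. Many mammalian ribosomal protein mRNAs begin with a C followed by a run of pyrimidines, the 5′ terminal oligopyrimidine tract, through which growth signals control their translation. The genome holds many processed copies of these genes, so that array probes for one of them may also bind related sequences.

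The genes described here were taken from the annotation of the array: every gene that is the single symbol of a probe set and is named Rps or Rpl with a number and at most 1 closing letter (a, x, l or y), together with Rpsa, Rplp0, Rplp1 and Rplp2 where they are the single symbol of a probe set, but not the Rps6k kinases. The rule gave 46 genes of the 18193 measured by a probe set of 1 symbol, 22 of the small and 24 of the large subunit, and 100 probe sets of 45037. A single probe set measured 23 of the genes, and 23 had more than 1, with at most 6. The array also has 110 probe sets that name a ribosomal protein gene beside another gene. These name 43 ribosomal protein genes, of which 28, Rpl32, Rpl3, Rplp1 and Rps12 among them, have no probe set of their own and are not described. The paralogs Rps27l, Rps4l, Rpl39l and Rpl3l, the last known from skeletal and heart muscle, stayed in by the rule.

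The study used these arrays to test how well small amounts of mRNA are amplified. Cortex of adult female C57BL/6 mice gave 1 mRNA preparation, which was diluted to 0.1, 1 or 10 pg, the amounts in a single cell or neurite, and amplified linearly by in vitro transcription (aRNA amplification). There were 3 arrays each of 0.1, 1 and 10 pg after 4 rounds, 3 arrays each of 0.1 and 1 pg after 2 rounds, 1 array of 10 pg after 2 rounds, and, as the reference of all, 1 array of 5 µg of unamplified mRNA, called bulk. Strain, tissue, sex and age were the same in all 7 groups, no group had a genetic change or a drug, and the labels do not give the number of animals.

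The arrays of a group were separate amplifications of 1 RNA, and a p-value here covers only what varied from one amplification to the next, with the number of arrays limiting the precision. Each array was centred on its median and scaled by its range between the 10th and 90th percentiles, so that a level is a log2 distance from that median. The probe set with the highest mean stands for its gene, and the threshold of a call is an adjusted p of 0.05 in limma, a linear model fitted over all 45037 probe sets and 7 groups. The 10 pg array after 2 rounds had 872 distinct values, against 1258 to 4345 on the other amplified arrays and 3771 in bulk. It stands apart from the other arrays in the levels described below. All 8 cortical neuron markers were measured, with a median at the 91.2 percentile of genes in bulk, while the markers of astrocytes stood at 87.3, oligodendrocytes at 59.8, endothelial cells at 58.9, microglia at 43.7, blood at 44.4, liver at 40.3 and muscle at 42.7.

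RefSeq promoter windows of 250 bases before to 50 bases after the start of transcription (GRCm38.p6) were found for 40 of the 46 genes, in 48 windows. A C at the start followed by at least 4 pyrimidines, the form of the terminal oligopyrimidine tract, was present in 8 of the 48 windows (16.7%) and in 2.51% of all 32851 windows. Only the annotated start base was read, so a window without this form does not show that the mRNA lacks the tract. The stretches below run from 10 bases before the start to 15 bases from it, with the pyrimidine run from the start in capitals. They are shown for some of the genes whose levels are described further on and for Rpl35, the longest run found.
Rps6 (chr4:86857353-86857377, minus strand): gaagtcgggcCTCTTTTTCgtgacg
Rps10 (chr17:27635230-27635254, minus strand): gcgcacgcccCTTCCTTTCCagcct
Rps18 (chr17:33955651-33955675, minus strand): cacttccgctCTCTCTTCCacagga
Rplp2 (chr7:141447641-141447665, plus strand): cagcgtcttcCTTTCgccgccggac
Rpl35 (chr2:39005117-39005141, minus strand): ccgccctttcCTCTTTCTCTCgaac

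The letters CCGGAAG, a form of the core recognised by ETS factors, stood on either strand in 20 of the 48 windows (41.7%) and in 8.86% of all windows. Its first letters can end a pyrimidine run on the same strand, and its complement CTTCCGG begins with pyrimidines. The matches of genes with a probe set that passed a test below are shown with 10 bases on each side and the match in capitals. A match is a description of the letters and not a binding site, and a window without one says nothing of the factor.
Rpl6 (chr5:121204503-121204529, plus strand): tgcttatagaCCGGAAGccgctgcctt
Rps26 (chr10:128626704-128626730, minus strand): taatcttccgCCGGAAGgttaaatagt
Rpl41 (chr10:128549208-128549234, minus strand): agtaaggcagCCGGAAGtcgctgtctc

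The signals of the ribosomal protein genes stood near the middle of the array in most groups and above it in bulk. Probe sets differ in how strongly they bind their target, so that a rank within an array is one of signals and not of amounts of RNA. The median gene of the 46 stood at the 40.4 ± 8.22 percentile of all genes at 0.1 pg, at 41.5 ± 6.82 at 1 pg and at 59.6 ± 15.1 at 10 pg after 4 rounds (SD, n = 3 each). After 2 rounds it stood at 42.1 ± 6.01 at 0.1 pg and 49.7 ± 7.58 at 1 pg (SD, n = 3 each), and at 87.3 on the single 10 pg array, against 65.1 in bulk. The 10 pg array after 2 rounds was thus the highest of the 17, and replicate 1 of 10 pg after 4 rounds, at 76.7, was the next. All arrays came from 1 mRNA preparation, so the cells of the tissue were the same for each group. Within that preparation, fewer cells of a type and less RNA per cell cannot be told apart.

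**Figure D1:**
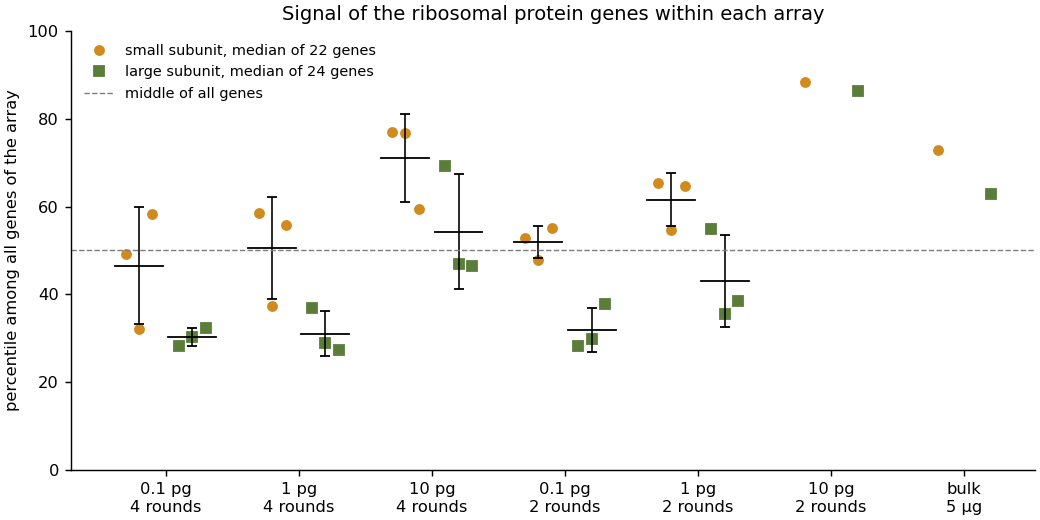
Percentile of the median small-subunit gene (circles, 22 genes) and of the median large-subunit gene (squares, 24 genes) among all 18193 genes of each array, by input and rounds of amplification; bars are the mean ± SD of 3 arrays. The small subunit lies above the large subunit in every group mean, and both lie highest on the 10 pg array after 2 rounds, at 88.5 and 86.3.

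Genes of the small subunit gave higher ranks than those of the large subunit in the mean of every group. At 0.1 pg after 4 rounds the median small-subunit gene stood at the 46.5 ± 13.3 percentile and the median large-subunit gene at 30.2 ± 2.01 (SD, n = 3). In bulk they stood at 73.0 and 63.0. Among the 7 groups the gap of the means was smallest at 10 pg after 2 rounds, with 88.5 for the small and 86.3 for the large subunit. Replicate 2 of 0.1 pg after 4 rounds had a narrower one, with 32.0 and 30.2.

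Among the 46 genes, Rps9, a small-subunit protein at the entry of the mRNA channel, had the highest mean level over the 17 arrays (6.62), followed by Rps10 (2.89) and Rps28 (2.67), which lie at the entry and the exit of that channel. Rps9 lay between 5.91 and 7.45 on every array, and it was the only one of the 46 in the top 5% of genes in bulk. This level comes from 1 probe set for several transcripts, and the other 2 sets of Rps9 had means of 1.75 and -0.74, with -0.19 and 0.33 in bulk. Rpl37 (-1.91), Rps16 (-1.89) and Rplp0 (-1.56), the last the base of the stalk that recruits translation factors, had the lowest means. Their levels lay below the median of the array on all 17 arrays except for Rps16, which reached 0.39 on replicate 2 of 0.1 pg after 2 rounds. On the 10 pg array after 2 rounds, 7 of the 46 genes were in the top 5% of genes and 19 in the top 10%, against 1 and 2 in bulk.

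**Figure D2:**
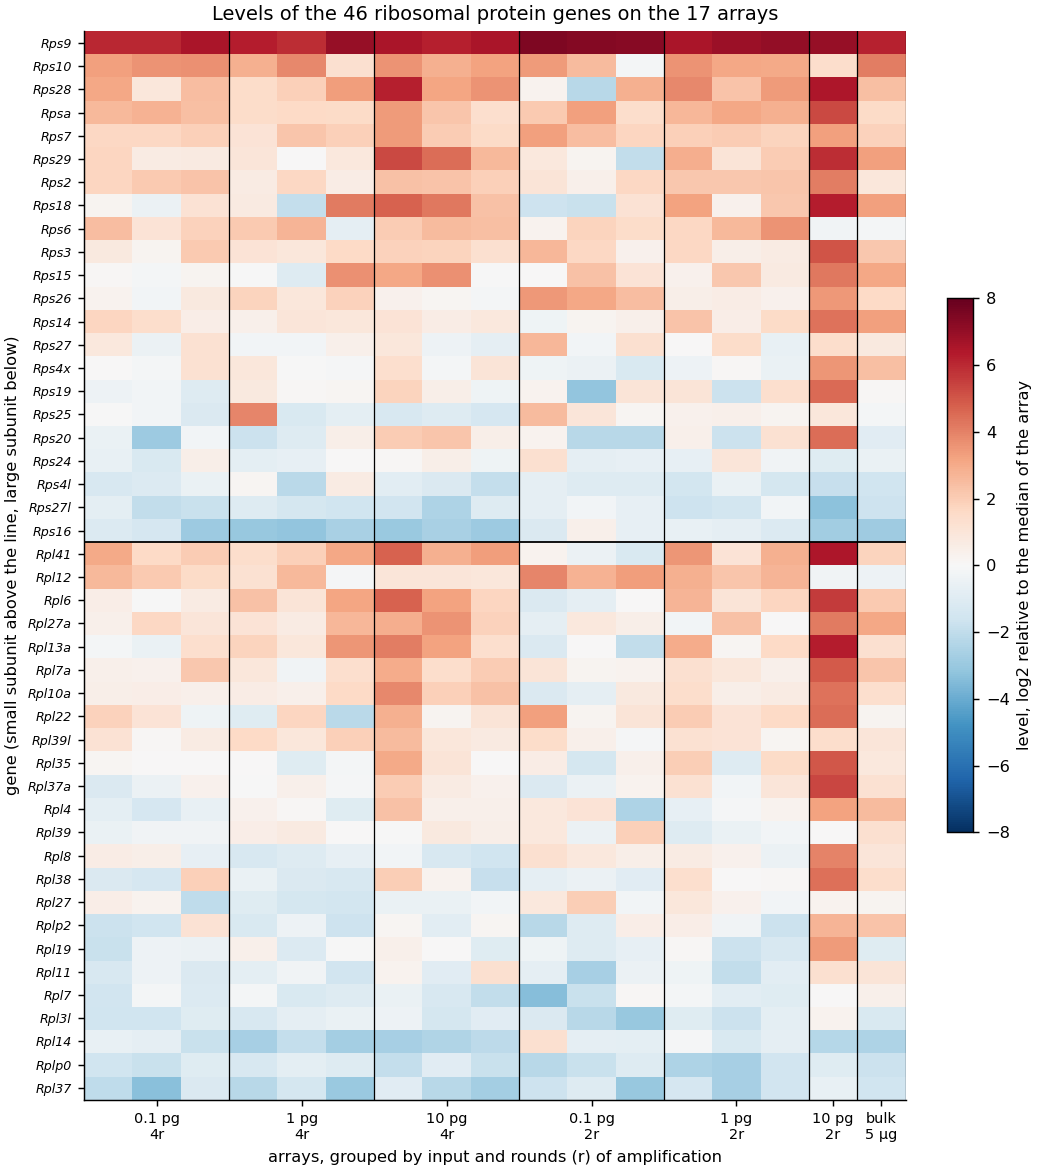
Level of each of the 46 genes (rows, small subunit above the line, large subunit below, each sorted by mean) on each of the 17 arrays (columns, grouped by input and rounds), as the log2 distance from the array median. Rps9 is high on every array, at 5.91 or more, and the column of 10 pg after 2 rounds is the highest for 28 genes.

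On the 10 pg array after 2 rounds, 28 of the 46 ribosomal protein genes (60.9%) lay above all of the other 16 arrays, against 9.92% of all genes. Below all other arrays lay 1 of the 46, against 15.5% of all genes. With 1 array in the group there is no replicate check and no test. The median of the 46 genes was 2.99 above their median over the other 16 arrays on the log2 scale, while that of all genes was 0.07 below. Over all 100 probe sets the median was 1.99, and 55 lay above all other arrays, against 9.96% of all probe sets. Large-subunit genes had a median difference of 3.24 and small-subunit genes one of 2.54.

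The widest differences were those of Rps18 (5.15), Rpl37a (5.05) and Rpl13a (4.98), and the lowest was that of Rpl12, which binds at the base of the stalk (-2.47). Rps18 had a level of 6.29 on this array, against 4.72 on the highest of the other arrays, and Rpl37a one of 5.37 against 2.04. Other probe sets differed by -1.21 to 4.78 for Rps18, by 0.06 and 0.55 for Rpl37a and by 1.09 to 5.57 for Rpl13a. Rps6, the small-subunit protein phosphorylated by the S6 kinases, was at -0.29 on this array, 2.24 below its median elsewhere, and Rps10 at 1.42 was 1.84 below its own. The second set of Rps6 differed by 1.56, and the other sets of Rps10 by -0.24 to 2.14. Rpl12 and Rps6 shared 1 of the 872 distinct levels of this array, at -0.29. Nearest to the highest other array were Rps26, which reached 3.48 against 3.47, and Rpl11, which at 1.26 lay below 1.29.

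This array separated the probe sets by kind. The suffix of a probe set, given by the maker of the array, marks sets whose probes match 1 transcript (_at), several transcripts of 1 gene (_a_at), several transcripts (_s_at) or sequences with which they may cross-hybridise (_x_at). Of the 100 probe sets of the ribosomal protein genes, 40 were _x_at, 31 _at, 26 _a_at and 3 _s_at. The 40 _x_at sets had a median difference of 3.90 between this array and the other 16, and 26 of them differed by more than 2. Among the 26 _a_at sets the median was 2.50 and 16 differed by more than 2, whereas the 31 _at sets had a median of 0.11 and 4 over 2. The median levels of the _x_at, _a_at and _at sets were 4.16, 2.81 and -0.29 on this array. In bulk they were 0.87, 1.09 and -0.26, and at 10 pg after 4 rounds 0.77, 0.16 and -0.31. At 0.1 pg after 2 or 4 rounds and at 1 pg after 4 rounds the _x_at median lay below the _at median.

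Sets of other genes gave lower medians in each class. The 1998 _x_at sets of other genes had a median difference of 0.41 with 16.7% over 2, the 4058 _a_at sets one of 0.20 with 447 over 2, and the 26961 _at sets one of -0.04 with 6.02% over 2. The 1828 _s_at sets of other genes had a median of 0.23, beside 1.57 for the 3 of the ribosomal protein genes. Of the 110 probe sets that name a ribosomal protein gene beside another gene, 52 differed by more than 2, with a median of 1.75. Without _x_at and _s_at sets, 41 of the 46 genes remained, of which 17 lay above all other arrays, against 9.54% of all genes with such sets left out. Their median difference was 1.26. The part of cross-hybridisation in these values was not tested.

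At 0.1 against 10 pg after 4 rounds, most of the ribosomal protein genes had a lower mean, but few passed the test. In limma 3 of the 46 genes fell (6.52%), near the 4.99% of all genes that fell, and 0 rose, against 4.97% of all genes. At an unadjusted p under 0.05 there were 11 of the 46, against 27.1% of all genes. The genes that fell were Rps29, whose 3 probe sets are all _x_at sets, Rpl6 and Rpl10a. Without _x_at and _s_at sets, 2 of 41 genes fell and 0 rose. Over all probe sets of every kind, 4.83% fell and 4.04% rose. The median change of the 46 genes was -0.52, against 0.13 over all genes, and 31 of the 46 (67.4%) lay below 0, against 44.8% of all genes. The median was -0.20 without replicate 1 of 10 pg and -0.26 without replicate 2 of 0.1 pg. The arrays did not overlap for 10 genes that were lower at 0.1 pg (17.9% of all genes) and for 2 that were higher (25.8%).

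Rps29, a zinc-binding protein of the head of the small subunit, had levels of 1.73, 0.63 and 0.74 at 0.1 pg after 4 rounds, against 5.26, 4.50 and 2.62 at 10 pg after 4 rounds. All arrays at 0.1 pg lay below all arrays at 10 pg, and replicate 3 was the lowest at 10 pg. The change was -3.09 ± 0.74 on the log2 scale (SE, limma adjusted p = 0.0170). At 1 pg after 4 rounds its levels were 0.98, 0.03 and 0.84, in the range of the 0.1 pg arrays or below it. After 2 rounds they were 0.81, 0.21 and -1.94 at 0.1 pg, 2.89, 1.03 and 2.01 at 1 pg, and 5.90 at 10 pg, against 3.26 in bulk.

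Rpl6, a protein on the outer surface of the large subunit, had levels of 0.51, -0.05 and 0.63 at 0.1 pg, against 4.73, 3.24 and 1.73 at 10 pg after 4 rounds. The groups did not overlap, although the 10 pg arrays lay far apart. It fell by 2.87 ± 0.69 (SE, limma adjusted p = 0.0173). The 1 pg arrays after 4 rounds, at 2.36, 1.05 and 3.13, lay above all arrays of 0.1 pg and overlapped those of 10 pg.

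Rpl10a, which forms the mobile stalk beside the exit site of the tRNA, had levels of 0.47, 0.51 and 0.43 at 0.1 pg, against 3.87, 1.92 and 2.37 at 10 pg after 4 rounds. The 0.1 pg arrays lay close together, and all were below the 10 pg arrays. The change was -2.25 ± 0.58 (SE, limma adjusted p = 0.0244). With any 1 array left out the changes stayed negative, at -3.84 to -2.52 for Rps29, -3.62 to -2.12 for Rpl6 and -2.65 to -1.68 for Rpl10a, but the calls were often lost. Of the 46 genes, 0 passed without replicate 1 of 10 pg or without replicate 2 of 0.1 pg, 1 passed without replicate 2 of 10 pg or without replicate 1 or 3 of 0.1 pg, and 4 passed without replicate 3 of 10 pg. The adjusted p of Rps29 in limma was 0.102, 0.0681, 0.0754 and 0.0549 without replicates 1 and 2 of 10 pg and replicates 2 and 3 of 0.1 pg. That of Rpl6 was 0.106, 0.0565, 0.0528 and 0.0776 without replicates 1 and 2 of 10 pg and replicates 1 and 2 of 0.1 pg. That of Rpl10a was 0.140 without replicate 1 of 10 pg and between 0.0610 and 0.0784 without any 1 of the 0.1 pg arrays.

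**Figure D3:**
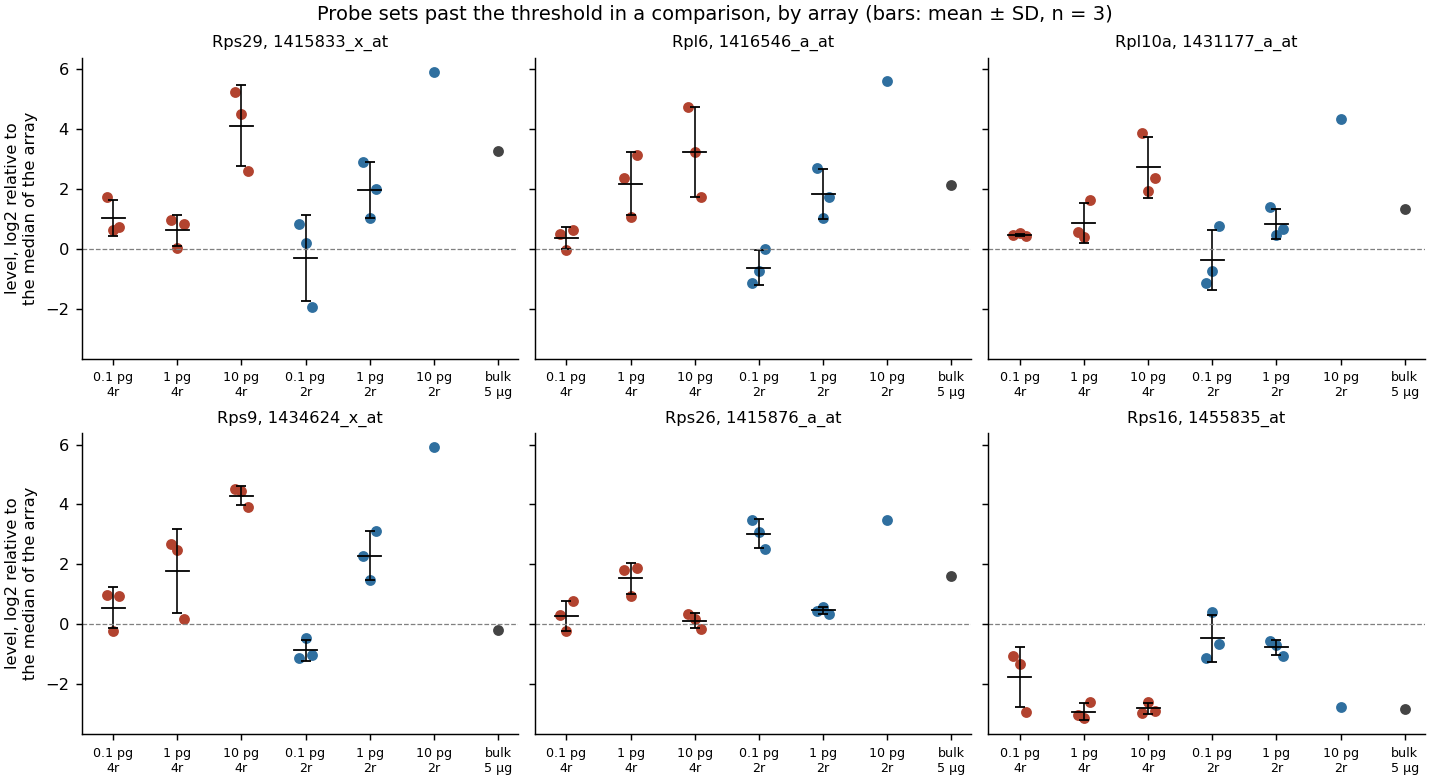
Level of 6 probe sets on each array (points) by input and rounds (r), as the log2 distance from the array median, with the mean ± SD of groups of 3 arrays. Rps29, Rpl6, Rpl10a and the _x_at probe set of Rps9 are lower at 0.1 pg than at 10 pg after 4 rounds with no overlap, and Rps26 is high at 0.1 pg after 2 rounds, at 2.50 to 3.47.

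Of the 100 probe sets, 6 were lower at 0.1 pg than at 10 pg after 4 rounds (4.83% of all probe sets were) and 0 were higher (4.04%). Beside the 3 named, they were a second probe set of Rps29 (1438859_x_at, -2.97 ± 0.90, SE, limma adjusted p = 0.0493), one of Rpl13a (1455485_x_at, -3.09 ± 0.81, limma adjusted p = 0.0255) and one of Rps9 (1434624_x_at). The Rps9 probe set read 0.95, -0.23 and 0.92 at 0.1 pg, against 4.52, 4.43 and 3.92 at 10 pg after 4 rounds. The 10 pg arrays lay close together and far above those of 0.1 pg, and the change was -3.74 ± 0.62 (SE, limma adjusted p = 0.0017). It passed in 13 of 14 alternatives, each array left out among them, and not at a false discovery rate of 0.1%. The calls of the other Rps29 set and of Rpl13a were lost, with an adjusted p in limma of 0.212 and 0.124 without replicate 1 of 10 pg, 0.156 and 0.0780 without replicate 2 of 10 pg, 0.0872 and 0.105 without replicate 1 of 0.1 pg, and 0.144 and 0.116 without replicate 2 of 0.1 pg, and that of Rps29 also without replicate 3 of 0.1 pg (0.119).

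The other probe sets of Rps9 did not pass the test. The set with the highest mean (1433689_s_at) read 6.06, 6.03 and 6.52 at 0.1 pg, against 6.52, 6.21 and 6.50 at 10 pg after 4 rounds, a difference of -0.21 ± 0.39 (SE, limma adjusted p = 0.788), and these arrays overlapped. The third set (1426958_at) changed by -0.50 ± 0.68 (SE, limma adjusted p = 0.686). Of the 31 _at probe sets of the 46 genes, 0 were called by limma and their median change was 0.02, while the 40 _x_at sets had a median of -1.32 with 4 lower and the 26 _a_at sets one of -0.56 with 2 lower. Of the _x_at sets of other genes 6.96% were lower, and of their _a_at sets 6.31%.

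**Figure D4:**
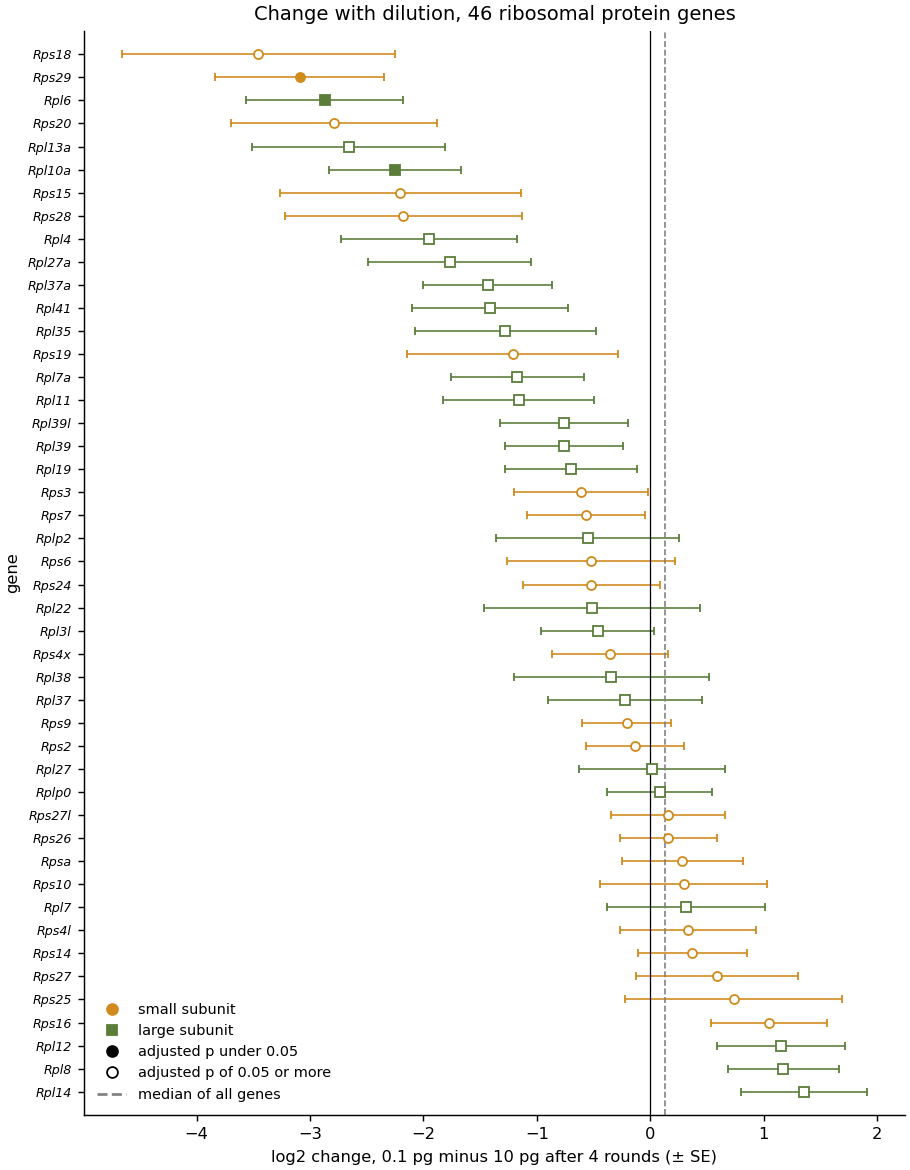
Change of each of the 46 genes between 0.1 and 10 pg after 4 rounds (log2, ± SE), sorted from the lowest at the top; circles are small-subunit and squares large-subunit genes, filled symbols passed an adjusted p of 0.05 and the dashed line is the median of all genes. Rps29, Rpl6 and Rpl10a are filled, and 31 of the 46 points lie below 0.

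Several ribosomal protein genes serve as reference genes for normalising expression. Rpl13a, which in human cells can also leave the ribosome to silence inflammatory mRNAs, had levels of -0.14, -0.51 and 1.34 at 0.1 pg, against 4.07, 3.22 and 1.36 at 10 pg after 4 rounds. The groups did not overlap, though replicate 3 of each nearly met, and the change of -2.66 ± 0.85 missed the threshold (SE, limma adjusted p = 0.0627). Rps18, a protein at the interface of the subunits, had the widest change of the 46, -3.46 ± 1.20, and did not pass either (SE, limma adjusted p = 0.0832). Its levels were 0.24, -0.48 and 1.14 at 0.1 pg, against 4.72, 4.24 and 2.32 at 10 pg, with no overlap. These are values of the probe set with the highest mean, an _x_at set for both genes. Over the 6 sets of Rps18 the changes ran from -3.46 to 0.98, with 4 below 0. Over the 4 sets of Rpl13a they ran from -3.09 to -0.12.

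Rps18 also had the largest spread within groups, a pooled SD of 1.81, and its 1 pg arrays after 4 rounds read 0.72, -1.93 and 4.16. Rpl19 changed by -0.70 ± 0.58 and Rplp0 by 0.08 ± 0.46 (SE, limma adjusted p = 0.483 and 0.933). The signal of Rplp0 was low on all arrays. Rpl32, another common reference gene, has no probe set of its own here.

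The other genes with wide changes in the same comparison were Rps20 (-2.79 ± 0.91), Rps15 (-2.20 ± 1.06) and Rps28 (-2.18 ± 1.04), none past the threshold (SE, limma adjusted p = 0.0664, 0.205 and 0.203). The highest were Rpl14 (1.36 ± 0.56), Rpl8 (1.17 ± 0.49) and Rpl12 (1.15 ± 0.57), with adjusted p of 0.138, 0.147 and 0.214 in limma. The large subunit had a median change of -0.73, with 18 of 24 genes below 0, and the small subunit one of -0.28, with 13 of 22 below 0. Levels did not follow the input in a simple order: 28 of the 46 genes (60.9%, against 28.8% of all genes) had their highest mean at 10 pg after 4 rounds, but only 15 (32.6%, against 20.4%) had means in the order 0.1, 1 and 10 pg.

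Control probe sets for the ends of 2 transcripts differed between the inputs after 4 rounds. The 3′ set of b-actin minus its 5′ set was -0.81 ± 0.16 at 0.1 pg, against 1.13 ± 0.55 at 10 pg after 4 rounds, and that of Gapdh 3.71 ± 0.03 against 4.73 ± 0.21 (SD, n = 3 each, log2). After 2 rounds the spread was wider, with -1.55 ± 1.81 at 0.1 pg and 0.41 ± 1.02 at 1 pg for b-actin and 3.45 ± 0.78 and 4.27 ± 1.28 for Gapdh (SD, n = 3 each). On the 10 pg array after 2 rounds the values were 3.29 for b-actin and 3.84 for Gapdh, against 1.09 and 2.05 in bulk. Markers of cell types, measured in dilutions of the same preparation, also differed between 0.1 and 10 pg after 4 rounds. Of 8 markers of cortical neurons 2 fell (4.99% of all genes did), Snap25 (-3.65 ± 0.55) and Nefl (-5.05 ± 0.81), and 0 rose (SE, limma adjusted p = 0.00085 and 0.0014). The median level of the 8 was 2.27 to 3.34 on the 0.1 pg arrays, against 4.45 to 5.01 on the 10 pg arrays. The median of their 8 changes was smaller, at -0.35, against 0.13 over all genes. Of 3 measured markers of oligodendrocytes, Mbp rose (2.99 ± 0.78, SE, limma adjusted p = 0.0260), as did 4.97% of all genes. The median level of the 3 was 1.78 to 2.61 at 0.1 pg, against 0.57 to 1.80 at 10 pg. Of the markers of astrocytes, microglia, endothelial cells, blood, liver and muscle 0 passed. The part of transcript ends and of these markers in the changes of the ribosomal protein genes was not tested.

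Between 0.1 and 1 pg, over 2 and 4 rounds, 1 of the 46 genes was lower (1.28% of all genes) and 0 were higher (0.22%) in limma. This comparison shares the 0.1 pg arrays after 4 rounds with the one above. The gene was Rpl6, with the levels after 4 rounds given above, and with -1.15, -0.74 and 0.00 at 0.1 pg, against 2.70, 1.03 and 1.75 at 1 pg after 2 rounds. All 6 arrays at 0.1 pg lay below all 6 at 1 pg, as for 0.55% of all genes. It fell by 2.14 ± 0.49 (SE, limma adjusted p = 0.0435), a call that was lost in 13 of 20 alternatives. It was kept with 1 array left out only without replicate 3 of 0.1 pg after 2 rounds and replicate 2 of 1 pg after 4 rounds, and without any other 1 of the 12 arrays the adjusted p in limma was 0.0550 to 0.116.

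The _x_at probe set of Rps9 also fell in this comparison, by 2.20 ± 0.44 (SE, limma adjusted p = 0.0200), and it was the only other of the 100 probe sets to pass (0.986% of all probe sets were lower). Its adjusted p in limma was 0.0571 with replicate 3 of 1 pg after 2 rounds left out. Leaving out 1 array of 4 rounds, it was 0.0609 for replicate 1 of 1 pg and 0.0711 for replicate 2 of 0.1 pg. After 2 rounds it read -1.15, -0.47 and -1.04 at 0.1 pg, against 2.26, 1.48 and 3.12 at 1 pg. After 4 rounds the 1 pg arrays read 2.68, 2.46 and 0.17, and the last of these lay within the 0.1 pg arrays. The median change of the 46 genes was -0.17, against 0.04 over all genes, and 31 of the 46 lay below 0 (47.2% of all genes). The median was -0.02 without _x_at and _s_at sets and -0.09 with the deposited values.

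With 4 against 2 rounds, over 0.1 and 1 pg, 1 of the 46 genes was lower (1.91% of all genes) and 0 were higher (2.36%) in limma. The gene was Rps16, whose tail reaches the site where the tRNA is held. Its levels after 4 rounds were -1.08, -1.35 and -2.93 at 0.1 pg and -3.05, -3.15 and -2.61 at 1 pg. After 2 rounds they were -1.15, 0.39 and -0.68 at 0.1 pg and -0.58, -0.70 and -1.08 at 1 pg. The arrays of 1 pg did not overlap between the rounds, those of 0.1 pg did, and the change was -1.73 ± 0.36 (SE, limma adjusted p = 0.0178). Rps16 had a low signal in bulk (-2.86) and at 10 pg after 4 rounds as well, where its 3 arrays lay between -2.98 and -2.61. The call was kept with any 1 array left out. The median change of the 46 genes was -0.17, against -0.05 over all genes, and 27 of the 46 lay below 0 (52.5% of all genes). The median was -0.01 without replicate 2 of 0.1 pg after 4 rounds.

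The effect of rounds differed between the inputs for Rps26, a small-subunit protein at the exit of the mRNA channel. It read 0.29, -0.24 and 0.77 at 0.1 pg after 4 rounds, against 3.47, 3.07 and 2.50 at 0.1 pg after 2 rounds. At 1 pg it read 1.79, 0.92 and 1.86 after 4 rounds, against 0.44, 0.58 and 0.35 after 2 rounds. The groups did not overlap at either input, and they lay in opposite order: 4 rounds was 2.74 lower at 0.1 pg and 1.07 higher at 1 pg. The difference between these effects was -3.81 ± 0.60 (SE, limma adjusted p = 0.0056), and it passed in 18 of 19 alternatives, all but a false discovery rate of 0.1%. Rps26 was the only one of the 46 genes to pass this test (0.967% of all genes were lower), and 0 were higher (3.03%). At 10 pg it read 0.34, 0.16 and -0.17 after 4 rounds and 3.48 after 2 rounds, against 1.62 in bulk.

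Among the 100 probe sets, 3 differed in the other direction, with a larger effect of 4 rounds at 0.1 than at 1 pg (2.46% of all probe sets did). Of these, 2 measure Rps29: 1438859_x_at, with a difference of 5.88 ± 1.27, and 1437413_x_at, with 5.21 ± 1.12 (SE, limma adjusted p = 0.0211 for both). The set 1438859_x_at read 1.71, 0.73 and 0.71 at 0.1 pg after 4 rounds, against -2.83, 0.00 and -3.04 after 2 rounds, and -1.21, -2.42 and -0.18 at 1 pg after 4 rounds, against 2.87, 0.45 and 1.47 after 2 rounds. Again the order of the rounds was opposite at the 2 inputs, with no overlap at either. The set with the highest mean of Rps29 had a difference of 2.70 ± 1.05 and did not pass (SE, limma adjusted p = 0.156). Without replicate 1 of 1 pg after 2 rounds the adjusted p in limma was 0.0626 for 1438859_x_at and 0.0611 for 1437413_x_at, without replicate 3 of that group it lay just over the threshold and at 0.0549, and without replicate 1 of 0.1 pg after 4 rounds 0.0686 and 0.0695. For 1438859_x_at it was also 0.0506 without replicate 1 of 1 pg and 0.0507 without replicate 2 of 0.1 pg after 4 rounds.

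The third was a set of Rpl41 (1454639_x_at), which encodes one of the smallest ribosomal proteins. It read 3.08, 1.74 and 2.30 at 0.1 pg after 4 rounds, against -1.15, -0.74 and -1.94 after 2 rounds, with no overlap. At 1 pg the levels were 1.92, 1.80 and 2.30 after 4 rounds, against 3.61, 0.99 and 2.73 after 2 rounds, and they overlapped. The difference of effects was 4.09 ± 0.93 (SE, limma adjusted p = 0.0258). Leaving out 1 array of 2 rounds, that p was 0.0710 for replicate 1 and 0.0657 for replicate 3 of 1 pg. Among the arrays of 4 rounds it was 0.0616 for replicate 1 of 1 pg and 0.0831 for replicate 1 of 0.1 pg. Over the 46 genes the median difference was 0.48, against 0.04 over all genes, but 0.12 without _x_at and _s_at sets, 0.14 with the median over the probe sets of a gene and 0.23 without replicate 3 of 0.1 pg after 4 rounds.

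No ribosomal protein gene passed the test of the amplified groups against bulk. The count in limma was 0 of 46, against 0.819% of all genes, and 4 of the 46 had an unadjusted p under 0.05 (13.4% of all genes). Taking the median over the probe sets of a gene also gave 0 of 46 in limma. The median change was 0.09, against 0.16 over all genes. It was -0.38 without the 10 pg array after 2 rounds, and its sign was also negative for probe sets without _x_at and _s_at (-0.14), for the median over the probe sets of each gene (-0.10) and without probe sets below the median (-0.08). The bulk group is a single array, which the model takes to vary like the other groups.

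The 4 genes with an unadjusted p under 0.05 are described after their values were seen. Rpl12 was at -0.40 in bulk, below all 16 amplified arrays, which lay between -0.29 and 3.88 (2.05 ± 0.72, SE, limma adjusted p = 0.206). Rps14 was at 3.29 in bulk, and of the amplified arrays only that of 10 pg after 2 rounds, at 4.35, lay above it (-1.84 ± 0.61, SE, limma adjusted p = 0.180). Rps4x, the X-linked copy of Rps4, was at 2.43 in bulk against amplified arrays from -1.19 to 3.56, and Rplp2, an acidic protein of the stalk, at 2.27 against -2.21 to 2.70. Their changes were -1.76 ± 0.65 and -2.39 ± 1.02 (SE, limma adjusted p = 0.231 and 0.318). The other probe set of Rps4x (1420303_x_at) was at -0.86 in bulk, against amplified arrays from -1.73 to 0.64. Of the 46 genes, 2 were higher in bulk than on all amplified arrays (5.89% of all genes) and 1 was lower (7.5%).

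Probe sets of the same gene often differed. For the 23 genes with more than 1, the range between the means of the probe sets was 0.187 to 7.36, with a median of 1.45, and 7 genes had a range over 2. The widest were those of Rps9 (7.36), Rps18 (3.74), Rps10 (3.72), Rpsa (3.71), the laminin receptor protein of the small subunit, and Rps7 (3.31). In the change between 0.1 and 10 pg after 4 rounds, 11 of the 23 genes had probe sets of opposite sign. Across the 17 arrays, which share one RNA, the 3 sets of Rps29 correlated with r from 0.934 to 0.978, whereas those of Rps9 had r from -0.27 to 0.123 and those of Rps18 from -0.33 to 0.723.

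**Figure D5:**
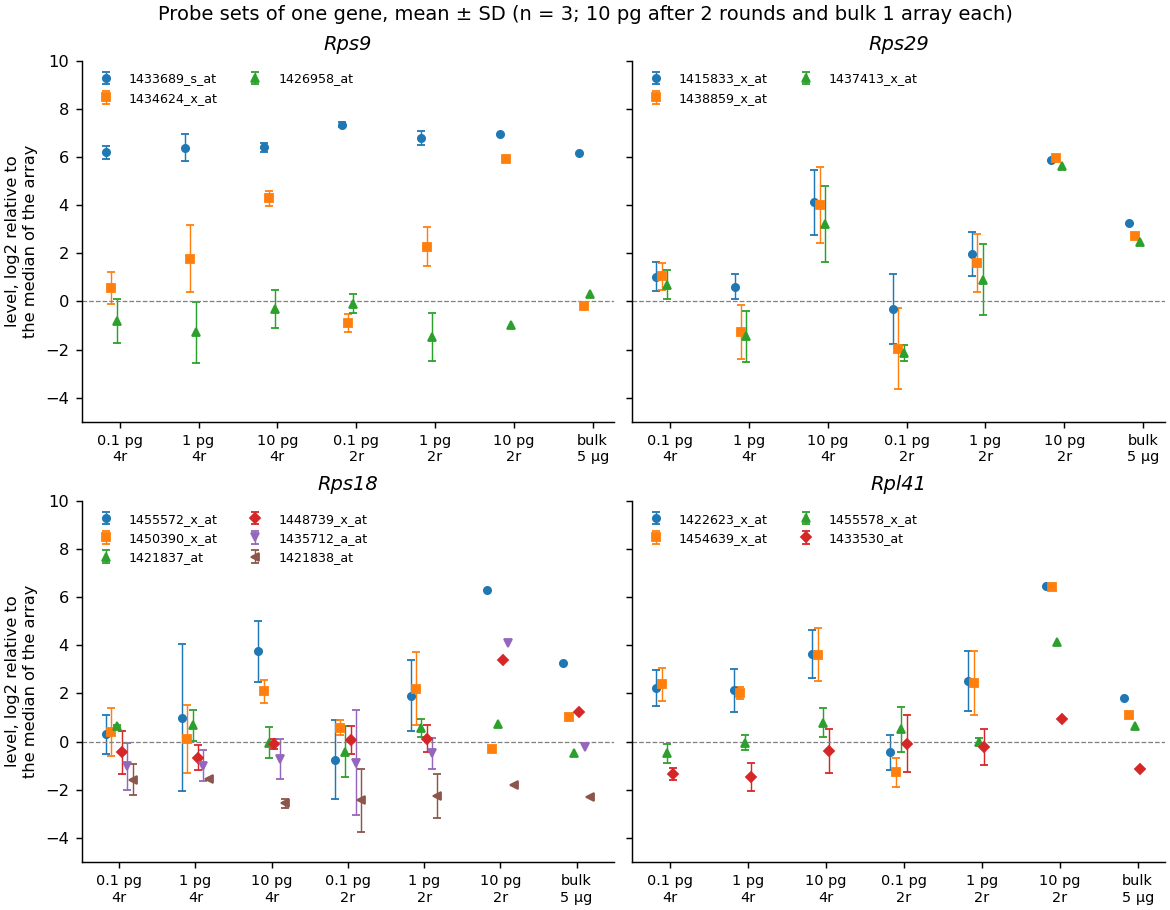
Level of each probe set of Rps9, Rps29, Rps18 and Rpl41 by input and rounds (r), as the log2 distance from the array median; points are means and bars the SD of 3 arrays. The 3 sets of Rps29 move together, while those of Rps9 differ by up to 7.36 in their mean.

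The 2 probe sets of Rps6 had similar means and did not move together. The first (1416142_at) read 2.45, 1.09 and 1.86 at 0.1 pg, 2.09, 2.69 and -0.70 at 1 pg and 2.04, 2.52 and 2.41 at 10 pg after 4 rounds, and -0.29 on the 10 pg array after 2 rounds, against -0.13 in bulk. The second (1453466_at) read 3.01 on the 10 pg array after 2 rounds, against 0.05 in bulk. Their correlation over the 17 arrays was 0.06, as a description.

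The spread between amplifications was wider for these genes than for others. The SD within groups, pooled over the 5 groups of 3 arrays, had a median of 0.819 for the 46 genes, against 0.682 for all genes and 0.692 for genes whose means lay in the range of the 46. The median SD of the 46 was the larger in each of the 5 groups, and the gap was widest at 10 pg after 4 rounds, where the median SD was 0.802 for the 46 and 0.404 for all genes, and narrowest at 1 pg after 4 rounds, with 0.574 and 0.528. Rps18 (1.81), Rps15 (1.58), Rps28 (1.55) and Rps25 (1.41) had the largest SD. Rps25, on which some viral mRNAs depend to start translation, read 3.90 on replicate 1 of 1 pg after 4 rounds, where the other replicates read -1.25 and -0.75. Rps9 (0.315), Rps26 (0.411), Rps2 (0.422) and Rplp0 (0.496) had the smallest. Rps2, at the entry of the mRNA channel, read 1.72, 2.10 and 2.26 at 0.1 pg, against 2.35, 2.26 and 1.88 at 10 pg after 4 rounds, and these arrays overlapped.

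Other genes of translation were counted from lists chosen for their function. Of 45 translation factors 39 were measured, and 2 fell between 0.1 and 10 pg after 4 rounds, the helicase Eif4a2 (-2.39 ± 0.53) and Eif5a (-4.81 ± 0.74, SE, limma adjusted p = 0.0111 and 0.0010), while 0 rose. This is a share near the 4.99% of all genes that fell. In the amplified groups against bulk, 3 were lower (0.704% of all genes were), Eef1a1, Eif4a2 and Pabpc1 (-3.61 ± 0.75, -4.01 ± 0.68 and -5.14 ± 0.74, SE, limma adjusted p = 0.0301, 0.0094 and 0.0037), and 0 were higher. The median change of this list was -0.16 with dilution and 0.02 against bulk, beside -0.52 and 0.09 for the ribosomal protein genes. All 27 genes of ribosome biogenesis were measured. With dilution after 4 rounds, Npm1, which shuttles ribosomal proteins, fell by 2.94 ± 0.74 and Gar1, of the RNA-modifying complexes, rose by 2.17 ± 0.64 (SE, limma adjusted p = 0.0220 and 0.0428), and the median of the list was -0.15. These are 1 of 27 in each direction, against 4.99% of all genes lower and 4.97% higher. Of 7 further ribosomal genes outside the naming rule 3 were measured, and Rpl22l1 was lower after 4 than after 2 rounds (-1.58 ± 0.43, SE, limma adjusted p = 0.0492), as were 1.91% of all genes.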

How the data were processed

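mRNA of 1 cortical preparation was measured on 17 Affymetrix Mouse 430 2.0 arrays in 7 groups. The deposited values were log2 probe set levels that the authors had summarized with RMA 2.0 (upper decile statistic, by the methods), and medians of the arrays from 5.64 to 6.01 show that no centring was in them. Here each array was centred on its median and scaled by its range between the 10th and 90th percentiles, as the methods describe, and multiplied by the mean range of 4.63, a step added here that returns the values to a log2 scale. The 64 control probe sets were left out, and 45037 remained, of which 34945 had 1 gene symbol in GEO's platform annotation, 932 several and 9160 none. The symbols did not differ from those of RefSeq by Entrez ID. All columns belonged to a sample.

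Group means were fitted with limma 3.58.1 in R 4.3.3 (eBayes, two-sided tests, Benjamini-Hochberg adjustment over all probe sets), and the code was tested on simulated data. Tables and figures were made with python 3.11.15, numpy 2.4.6, pandas 2.3.3 and matplotlib 3.10.9. Amplified arrays were set against bulk as the mean of 6 groups with equal weight. The genes, the lists of translation factors, ribosome biogenesis, other ribosomal genes and cell type markers, and the tests were chosen with earlier results of these data known. Genes were named if they passed a test without overlap (up to 5 in each direction), had the 3 highest or lowest means, the 5 widest ranges between probe sets or the 4 largest or smallest SD, or are reference genes or named in the study. Other genes were named after their values were seen. Alternatives were the deposited values, median centring alone, quantile normalization, a filter on low probe sets, other choices of probe set, the compared groups fitted alone, a replicate block, each array left out, a false discovery rate of 0.1% and the methods' t-test. Those for the counts on the 10 pg array after 2 rounds were added after seeing the data.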

Additional observations from a re-analysis of the deposited data

Results flagged for a closer look

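The effect of 4 against 2 rounds differed between 0.1 and 1 pg, by a test of the difference itself, for 4 of the 100 probe sets. This is a share near the 3.59% of all probe sets. For Rps26 (1415876_a_at) the difference was -3.81, from a 4-round effect of -2.74 at 0.1 pg and 1.07 at 1 pg. For Rps29 it was 5.88 in 1438859_x_at (3.01 at 0.1 pg and -2.87 at 1 pg) and 5.21 in 1437413_x_at (2.85 and -2.36). For Rpl41 it was 4.09 in 1454639_x_at (3.65 and -0.44), and its other probe sets did not pass. At 1 pg the arrays of 1454639_x_at and of 1437413_x_at overlapped between the rounds. The cause of these differences was not tested.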

How the results depend on the processing

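Counts of ribosomal protein genes past the threshold were small and moved with the processing. For 0.1 against 10 pg after 4 rounds the 3 genes became 0 at a false discovery rate of 0.1%, 0 in the methods' t-test, 5 with the median over the probe sets of a gene and 8 with the compared groups fitted alone, and 0 to 4 with 1 array left out. Over the whole array, 1490 of 18193 genes passed with that median, and 8094 of 45037 probe sets with the groups fitted alone. For 0.1 against 1 pg the 1 gene became 0 at 0.1%, 0 with the deposited values and 0 in the methods' t-test, and 0 to 1 with 1 array left out. For 4 against 2 rounds the 1 gene became 0 at 0.1%, 0 in the methods' t-test, 0 without low probe sets, 2 with the deposited values and 3 with the median over probe sets, and 1 to 3 with 1 array left out. With the deposited values 1849 of all 45037 probe sets passed, and with the median over probe sets 577 of all 18193 genes. The filter on low probe sets took out Rps16 itself, with its mean of -1.89, so that it was not tested there. For the difference in the effect of rounds the 1 gene became 0 at 0.1%, 2 with the deposited values, 2 with median centring alone, 2 without low probe sets and 3 with the median over probe sets, and 1 to 2 with 1 array left out. Of all 45037 probe sets, 1878 passed with the deposited values and 1902 with median centring alone. Without low probe sets 1610 of 22062 passed, and with the median over probe sets 623 of 18193 genes. The median change against bulk, 0.09, was -0.38 without the 10 pg array after 2 rounds. The 28 of 46 genes highest on that array (9.92% of all genes) were 17 of 41 without _x_at and _s_at sets (9.54%). The causes were not tested.

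The median over the ribosomal protein genes kept its sign in the dilution comparisons and the comparison of rounds under each array left out, at -0.77 to -0.20 for 0.1 against 10 pg, -0.28 to -0.07 for 0.1 against 1 pg and -0.37 to -0.01 for 4 against 2 rounds, and at 0.23 to 0.66 for the difference in the effect of rounds. Without _x_at and _s_at sets the last was 0.12, and that for 0.1 against 1 pg -0.02. Those for 0.1 against 10 pg and for 4 against 2 rounds were then -0.50 and -0.12. Over all probe sets, 3992 passed for 0.1 against 10 pg, with 8094 when fitted alone, 1580 in the methods' t-test, 294 at 0.1% and 1504 (replicate 1 of 10 pg) to 3811 with 1 array left out. For 0.1 against 1 pg there were 559, with 0 in the methods' t-test, 34 at 0.1% and 242 (replicate 2 of 0.1 pg, 4 rounds) to 891 (replicate 3 of 0.1 pg, 2 rounds) with 1 array left out. For 4 against 2 rounds there were 1759, with 853 when fitted alone, 3 in the methods' t-test, 20 at 0.1% and 674 (replicate 1 of 1 pg, 4 rounds) to 2872 (replicate 3 of 0.1 pg, 2 rounds) with 1 array left out. For the difference in the effect of rounds there were 1619, with 880 when fitted alone, 0 at 0.1% and 341 (replicate 1 of 0.1 pg, 4 rounds) to 3331 (replicate 3 of 0.1 pg, 2 rounds) with 1 array left out. Against bulk, 32 were higher and 462 lower, but 158 higher and 554 lower with the deposited values, where the median over all genes was 0.31 in place of 0.16. It was 871 in all with median centring alone, 749 without the 10 pg array after 2 rounds 4 at 0.1% and 317 to 721 with 1 array left out.

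With the replicate block, 3, 1, 1 and 1 ribosomal protein genes passed in the comparisons without bulk, the same counts as without it, and the set 1438859_x_at of Rps29 was lost (limma adjusted p = 0.0581). The numbers did not pair the arrays: of 30 same-numbered pairs, with correlations of deviations from -0.199 to 0.139, 2 were over 0.1. Bulk has no second number to pair. With 3 arrays a group, and 1 for bulk and for 10 pg after 2 rounds, small differences were not detectable.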
